A study of Sus scrofa with 9 samples.

Results

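LHCGR and PTGFR, the receptors for luteinizing hormone and for prostaglandin F2α, were followed in granulosa cells of the pig ovary that had been treated with sulforaphane, treated with follicle-stimulating hormone (FSH), or left as controls. The genes were taken by name, as 2 of the 1081 rows of the deposited table, and both passed the filter on low values that left 919 genes for testing. The cells were primary, wild-type granulosa cells, with 3 RNA sequencing libraries of sulforaphane-treated cells, 3 of FSH-treated cells and 3 of control cells. Sulforaphane is a plant isothiocyanate known as an activator of NRF2, and FSH is the pituitary hormone that drives follicle growth. Dose, duration and vehicle are not in the labels, nor is it stated if the 3 libraries in each group were made from different cultures or pigs. Every p-value therefore measures the spread between these libraries only, which may be technical.

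Both genes encode G protein-coupled receptors on which the corpus luteum depends. LHCGR binds luteinizing hormone and chorionic gonadotropin and couples mainly to Gs, adenylyl cyclase and protein kinase A. Granulosa cells acquire it late in follicle growth under FSH, and the ovulatory hormone surge acts through it to start luteinization, the conversion of follicular cells into progesterone-making luteal cells. PTGFR couples mainly to Gq, phospholipase C, calcium and protein kinase C, and luteal cells use it to respond to the prostaglandin F2α that ends the life of the corpus luteum.

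In the Sscrofa11.1 annotation LHCGR (NCBI gene 407247) lies on chromosome 3 from 91964415 to 92023821, and PTGFR (NCBI gene 397126) on chromosome 6 from 134727334 to 134777067. The deposited values are given per gene and do not separate exons, introns or untranslated regions. Counts of both genes were whole numbers in all 9 libraries, unlike those of some genes below. Counts that are not whole are estimates whose origin is not stated, and such genes are marked as less certain.

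Sequencing depth, recovered from the ratio of counts to FPKM (fragments per kilobase of transcript, scaled to library depth), lay between 16600000 and 22300000 fragments per library, of which the rows of the table held 6.72% to 8.38%. The table contained almost no gene with a small difference from control: of 919 tested genes, 0 had an absolute log2 fold change under 0.3 with sulforaphane and 1 with FSH, while 381 had one under 0.3 in the direct comparison of sulforaphane with FSH. No label or header says how its rows were picked. Sulforaphane replicate 3 stood apart from its group. Its median absolute difference from the mean of the other libraries of its group was 0.21 on the log2(FPKM + 1) scale, against 0.13 and 0.16 for sulforaphane replicates 1 and 2, and between 0.0662 and 0.101 for the FSH and control libraries.

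LHCGR was a low transcript in these cells, lowest after sulforaphane and highest after FSH. Its level was 0.96, 0.87 and 1.13 FPKM in the 3 sulforaphane libraries, 3.46, 4.08 and 3.23 FPKM in the 3 FSH libraries, and 1.95, 2.22 and 1.96 FPKM in the 3 control libraries. No value of one group fell within the range of another, and the order sulforaphane, control, FSH held for every library. Such ranges did not overlap for 96.0% of tested genes between sulforaphane and control, 98.7% between FSH and control and 59.4% between sulforaphane and FSH. As in any bulk sample, fewer cells that express LHCGR and less of its RNA per cell cannot be told apart. The means were 0.987 ± 0.132 FPKM with sulforaphane, 3.59 ± 0.440 FPKM with FSH and 2.04 ± 0.153 FPKM in controls (SD, n = 3 each). These levels rest on few reads. The counts were 47, 46 and 56 with sulforaphane, 161, 181 and 199 with FSH, and 95, 128 and 100 in controls.

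The counting intervals of LHCGR did not meet between groups, and the share of tested genes for which this holds was not computed. In CPM, the count scaled to library depth without regard to transcript length, the exact Poisson 95% intervals of the sulforaphane libraries reached up to 4.07, and those of the control libraries began at 4.16. The intervals of the FSH libraries began at 7.70, and those of the control libraries ended at 7.33. The intervals cover counting error only, and no molecular identifiers that would remove PCR copies are named in the labels.

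PTGFR was the more abundant receptor transcript in every library and showed the same order of groups. Its level was 11.16, 9.87 and 17.07 FPKM in the sulforaphane libraries, 40.72, 44.1 and 34.14 FPKM in the FSH libraries, and 20.26, 22.97 and 19.78 FPKM in the control libraries. Again no group overlapped another, as for most tested genes, but sulforaphane replicate 3 came within 3 FPKM of the lowest control. The means were 12.7 ± 3.84 FPKM with sulforaphane, 39.7 ± 5.06 FPKM with FSH and 21.0 ± 1.72 FPKM in controls (SD, n = 3 each). The coefficient of variation among the sulforaphane libraries was 30.2%, against 12.8% with FSH and 8.19% in controls. With 815 to 3773 counts per library, counting error was small beside this spread.

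**Figure D1:**
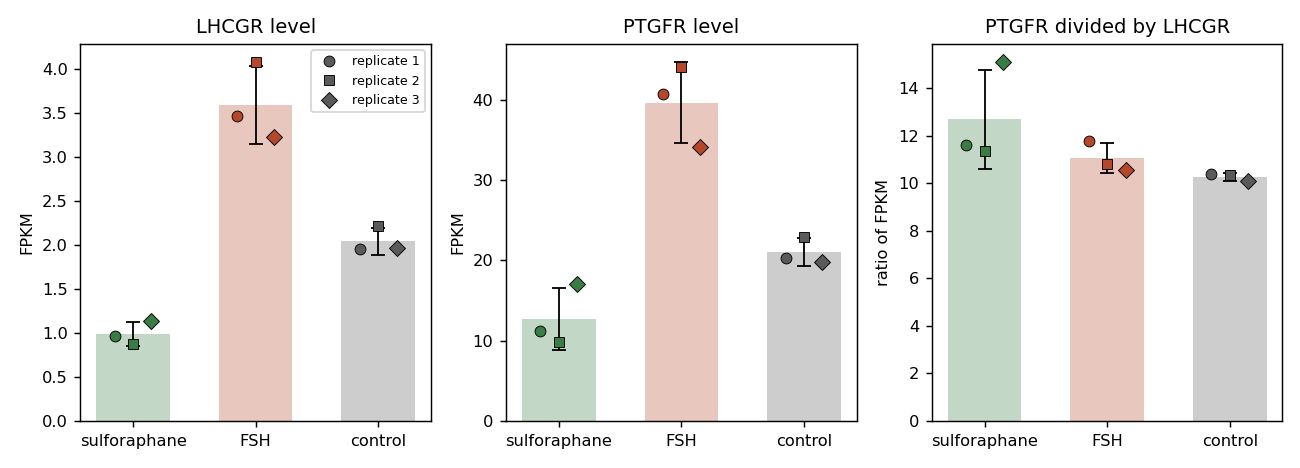
Levels of LHCGR and PTGFR in FPKM (left and middle) and the ratio of PTGFR to LHCGR (right) in sulforaphane, FSH and control libraries; points are libraries, bars are means and error bars are SD (n = 3). Both genes were lowest with sulforaphane and highest with FSH without overlap, and sulforaphane replicate 3 (diamond) had the highest value of its group for both genes and the highest ratio, 15.1.

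The first comparison asks what sulforaphane does to the receptors. LHCGR fell 2.05-fold relative to control, with a log2 fold change of -1.03 ± 0.163 (SE; edgeR quasi-likelihood test, adjusted p = 8.63e-05 by Benjamini-Hochberg over all 919 genes). Genes were called at an adjusted p under 0.05. PTGFR fell 1.65-fold, with a log2 fold change of -0.72 ± 0.168 (SE; adjusted p = 0.00143, same test). Both receptors were thus called lower, as were 65.3% of all tested genes, and 99.6% were called in either direction. A call against control therefore says little that is particular to a gene of this table. The size of the changes was not extreme either: 22.6% of tested genes had a lower log2 fold change than LHCGR and 37.9% a lower one than PTGFR.

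The sulforaphane effect on PTGFR depended on how libraries were scaled. With the recovered depths the median gene of the table was at a log2 fold change of -0.56, and 315 genes were called higher and 600 lower. TMM and median-ratio factors rescale libraries on the premise that most genes of a table do not differ. TMM factors moved that median to -0.09, with 317 genes higher and 296 lower, and median-ratio factors moved it to -0.20, with 317 higher and 369 lower. Under TMM factors PTGFR no longer passed, at a log2 fold change of -0.26 (adjusted p = 0.106, edgeR). LHCGR still fell under them, at -0.56 (adjusted p = 0.00569, edgeR). Under median-ratio factors both passed, PTGFR at -0.38 (adjusted p = 0.0209, edgeR) and LHCGR at -0.68 (adjusted p = 0.00144, edgeR). Relative to the median gene, LHCGR stood at -0.47 and PTGFR at -0.16 on the log2 scale. The size of the PTGFR change also varied with the sulforaphane library left out: without replicate 3 its log2 fold change was -1.003 (adjusted p = 1.51e-10, edgeR), and without replicate 2 it was -0.57 (adjusted p = 0.00534, edgeR). LHCGR was at -1.15 without replicate 3 (adjusted p = 3.87e-06, edgeR).

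FSH had the opposite sign for both genes. LHCGR rose 1.72-fold relative to control, with a log2 fold change of 0.78 ± 0.143 (SE; adjusted p = 0.000339 by Benjamini-Hochberg, edgeR quasi-likelihood). PTGFR rose 2.01-fold, with a log2 fold change of 1.004 ± 0.166 (SE; adjusted p = 0.00017, same test). Of all tested genes 55.3% were called higher and 42.7% lower, 97.9% in all. The rise of PTGFR was exceeded by 12.8% of tested genes and that of LHCGR by 18.7%. Both rises were above the median gene, by 0.60 for PTGFR and 0.38 for LHCGR on the log2 scale, and both passed under TMM factors, at 1.18 and 0.96.

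The comparisons against control share the 3 control libraries. Sulforaphane against FSH compares group means without them, though all 9 libraries share the estimate of spread behind its SE and p-values. The table holds many genes with little difference in this comparison. LHCGR was 3.52-fold lower with sulforaphane than with FSH, a log2 fold change of -1.82 ± 0.157 (SE; adjusted p = 4.83e-07 by Benjamini-Hochberg, edgeR quasi-likelihood). PTGFR was 3.31-fold lower, a log2 fold change of -1.73 ± 0.170 (SE; adjusted p = 1.60e-06, same test). Here 42.8% of tested genes were called lower and 55.7% were called in either direction. A lower log2 fold change than that of LHCGR was found in 9.14% of tested genes, and lower than that of PTGFR in 10.3%, with the median gene at -0.18. The split of calls moved with the scaling, with 119 higher and 393 lower with recovered depths and 320 higher and 327 lower with TMM factors. Both receptors stayed lower in both settings, with LHCGR at -1.52 and PTGFR at -1.44 under TMM factors. Without sulforaphane replicate 3 they were at -1.93 and -2.01.

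**Figure D2:**
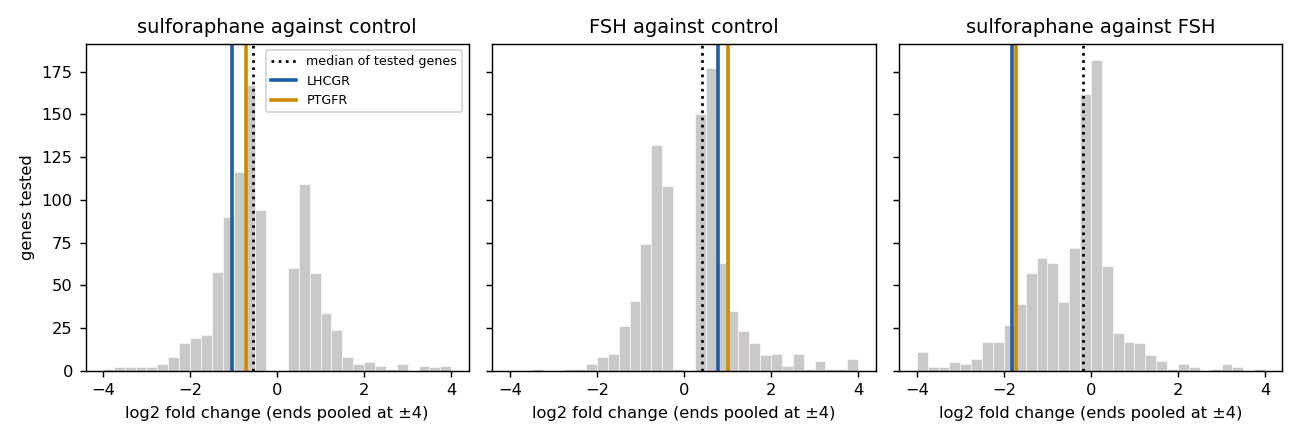
Histograms of the log2 fold changes of the 919 tested genes in each comparison, with values beyond 4 in either direction pooled at the ends; coloured lines mark LHCGR and PTGFR and the dotted line the median gene. Against control the centre of the histogram is nearly empty, and the receptors lie to the left with sulforaphane (-1.03 and -0.72) and to the right with FSH (0.78 and 1.004).

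Non-overlap of the groups was common in this table. The FPKM ranges of sulforaphane and control libraries did not overlap for 96.0% of tested genes, those of FSH and control libraries for 98.7%, and those of sulforaphane and FSH libraries for 59.4%. An exact two-sided permutation test of either receptor alone gave p = 0.1 in all 3 comparisons, the smallest value that 3 libraries against 3 can give.

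The receptors differed in level much more than in response. PTGFR exceeded LHCGR, per kilobase of transcript, by 11.6, 11.3 and 15.1 times in the sulforaphane libraries, by 11.8, 10.8 and 10.6 times in the FSH libraries, and by 10.4, 10.3 and 10.1 times in the control libraries. The lowest ratio with sulforaphane and the lowest with FSH were both above the highest control, and sulforaphane replicate 3 alone was above 12. The log2 ratio of LHCGR to PTGFR averaged -3.65 ± 0.229 with sulforaphane, -3.46 ± 0.0818 with FSH and -3.36 ± 0.0227 in controls (SD, n = 3 each). It differed from control by -0.29 with sulforaphane and by -0.10 with FSH, each with an exact two-sided permutation p = 0.1, the floor of the design. Sulforaphane and FSH libraries overlapped in this ratio (difference -0.19, exact permutation p = 0.3). Single libraries weighed on these differences. Without sulforaphane replicate 3 the differences were -0.16 against control and -0.06 against FSH. Without FSH replicate 1 the difference between FSH and control was -0.06. The ratio was taken in FPKM, and FPKM and counts of PTGFR disagree slightly after FSH, so differences that involve FSH depend on the measure. From counts the log2 fold changes of LHCGR and PTGFR were 0.78 and 1.004 with FSH. They were -1.82 and -1.73 for sulforaphane against FSH.

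**Figure D3:**
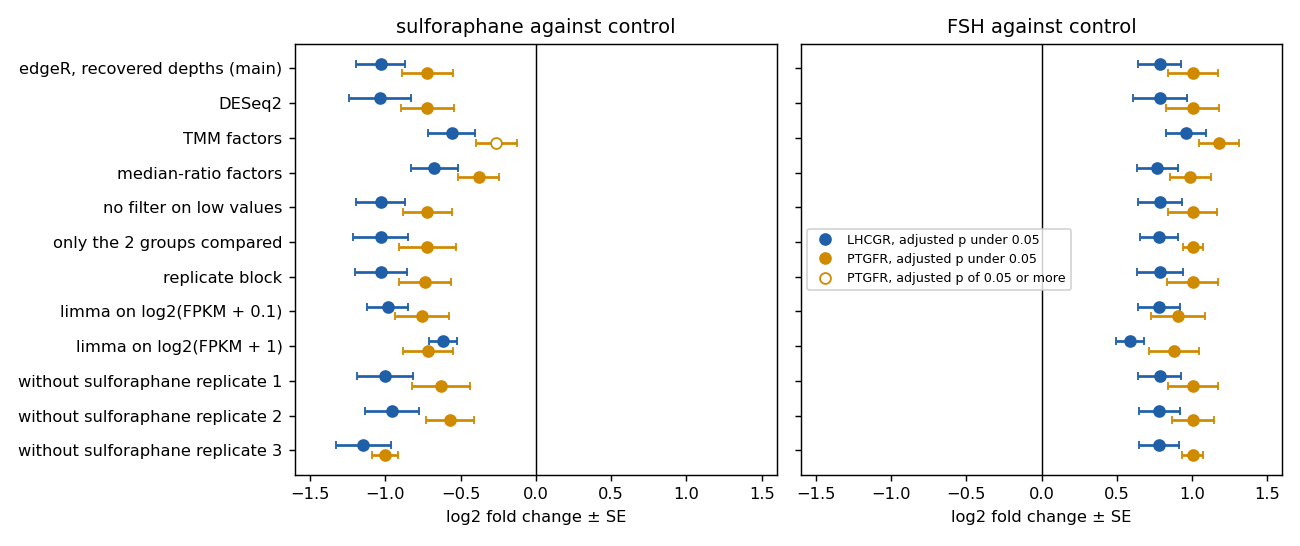
Log2 fold changes of LHCGR and PTGFR (points, with SE bars) against control under the main fit and other settings, for sulforaphane (left) and FSH (right); filled points passed at an adjusted p of 0.05. Direction was kept in every setting shown, and the open point is PTGFR after sulforaphane under TMM factors at -0.26.

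In rank by mean FPKM among the 919 tested genes, PTGFR was 266th with sulforaphane, 128th with FSH and 190th in controls, and LHCGR was 782nd, 596th and 714th in the same groups. The median tested gene stood at 4.69, 5.89 and 5.47 FPKM in those groups, so LHCGR was below it and PTGFR above it in each.

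Genes with profiles most like the receptors were sought by the root mean square difference of log2(FPKM + 0.1) over the 9 libraries after each gene's own mean had been subtracted. Between LHCGR and PTGFR this distance was 0.152, against a median distance from LHCGR of 0.760 over 906 genes. PTGFR was the 8th nearest gene to LHCGR, and LHCGR the 6th nearest to PTGFR. All genes share the same 9 libraries and their depths, so the distances are a description.

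The gene nearest to LHCGR was CYP27A1, the mitochondrial sterol 27-hydroxylase, at a distance of 0.116. It stood at 6.24 ± 1.28 FPKM with sulforaphane, 23.8 ± 2.07 FPKM with FSH and 14.1 ± 1.06 FPKM in controls (SD, n = 3 each). ST6GALNAC3, a sialyltransferase, was at 0.118, the secreted protein gene C1QTNF7 at 0.126, and DDB2, which recognises DNA damage by ultraviolet light, at 0.126. The fifth was VCAN, the matrix proteoglycan versican, at a distance of 0.143, with 40.6 ± 5.85 FPKM with sulforaphane, 150.1 ± 3.91 FPKM with FSH and 81.5 ± 5.63 FPKM in controls.

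The gene nearest to PTGFR was JUNB, an immediate-early transcription factor of the AP-1 family, at a distance of 0.125. Its level was 7.64 ± 1.70 FPKM with sulforaphane, 21.4 ± 0.757 FPKM with FSH and 12.0 ± 0.597 FPKM in controls. ECHDC2, with an enoyl-CoA hydratase domain, followed at 0.129, DDB2 at 0.136, LOC100525572 at 0.143 and the orphan receptor gene GPR153 at 0.145 (counts of GPR153 not whole). DDB2 was among the 5 nearest genes of both receptors, with 4.23 ± 0.912 FPKM with sulforaphane, 12.5 ± 0.756 FPKM with FSH and 7.78 ± 0.616 FPKM in controls.

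**Figure D4:**
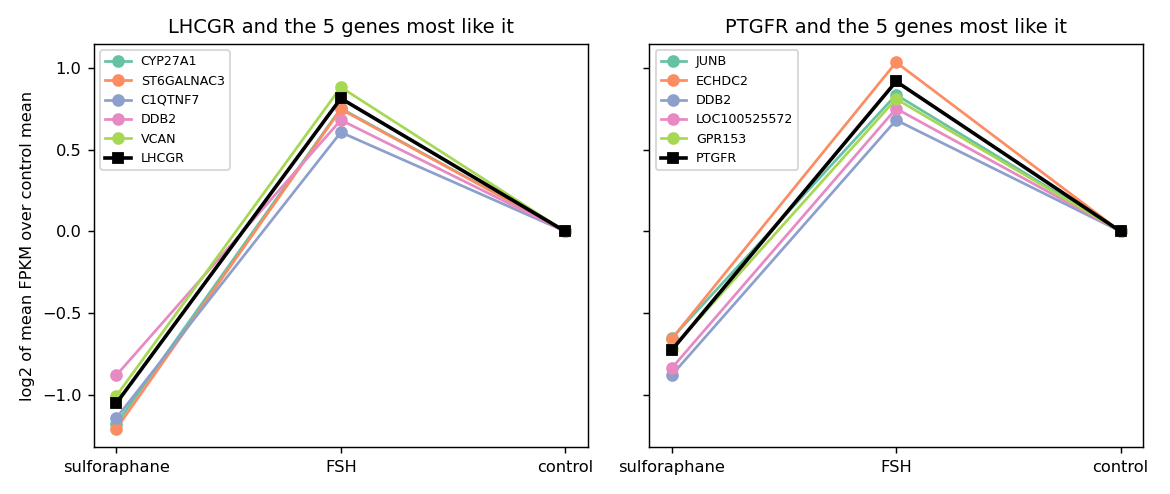
Mean FPKM in each group relative to the control mean, on a log2 scale, for LHCGR (left) and PTGFR (right) and the 5 genes nearest to each; each line joins the 3 group means of a gene. All lie below 0 with sulforaphane and above 0 with FSH, since nearness was measured on these same values.

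The other genes of the signalling route of LHCGR were taken from a list of 51 genes of gonadotropin receptors and cyclic AMP signalling. Of these, 8 were rows of the table and 7 were tested. This list and those that follow were chosen with earlier results of these data known, so their counts and medians are descriptions. Besides LHCGR, 4 of 6 rose and 2 fell with FSH, where 55.3% of all tested genes rose. With sulforaphane 2 rose and 4 fell, where 65.3% of all tested genes fell. Under TMM factors 2 of the 4 still fell, as did 296 of all 919 tested genes. These counts are near the shares over the table. RGS4, a regulator of G protein signalling that shortens the active state of Gi and Gq proteins, rose 9.17-fold with FSH, to 5.89 ± 0.267 FPKM, against 0.613 ± 0.119 FPKM in controls (SD, n = 3 each). It passed the filter of 1 FPKM in 3 libraries through the FSH libraries alone, so its rise is a description. PDE3B, a phosphodiesterase that breaks down cyclic AMP, stood at 0.543 ± 0.0751 FPKM with sulforaphane, 1.93 ± 0.106 FPKM with FSH and 1.17 ± 0.180 FPKM in controls. Its log2 fold changes of -1.10 with sulforaphane and 0.72 with FSH lay close to those of LHCGR.

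GRK5, a kinase that phosphorylates active receptors and so starts their desensitisation, rose 1.53-fold with FSH, to 10.7 ± 0.705 FPKM, against 6.99 ± 0.206 FPKM in controls. With sulforaphane it fell by 0.45 on the log2 scale with recovered depths and was at 0.02 (adjusted p = 0.891, edgeR) under TMM factors. PRKACB, a catalytic subunit of protein kinase A, rose 1.32-fold with sulforaphane and 1.31-fold with FSH. Under TMM factors its log2 fold changes were 0.87 with sulforaphane and 0.57 with FSH, and it was then called higher with sulforaphane than with FSH (0.30, adjusted p = 0.0177, edgeR). PDE8B, another cyclic AMP phosphodiesterase, rose 1.39-fold with sulforaphane and fell 1.41-fold with FSH (counts not whole). PDE7B did not pass the filter and was at 0.173 ± 0.0513 FPKM with sulforaphane, 0.903 ± 0.0808 FPKM with FSH and 0.343 ± 0.110 FPKM in controls. The FSH receptor, the gene of the Gs α subunit and the adenylyl cyclases are not analysed here.

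Of 26 listed genes known to bear on LHCGR transcription or mRNA stability, 3 were in the table and 2 were tested. Both rose with FSH, as did 55.3% of all tested genes. INHBA, which encodes the subunit of activin A (counts not whole), was at 27.4 ± 1.93 FPKM with sulforaphane, 123 ± 9.47 FPKM with FSH and 43.1 ± 3.18 FPKM in controls. FST, follistatin, which binds and neutralises activin, was at 34.6 ± 7.04, 50.2 ± 2.01 and 19.8 ± 1.13 FPKM in the same groups. With sulforaphane FST rose 1.75-fold, while INHBA fell 1.58-fold with recovered depths. INHBA did not pass under TMM factors (log2 fold change -0.19, adjusted p = 0.0881, edgeR). Under median-ratio factors it did (-0.30, adjusted p = 0.00967, edgeR).

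Around PTGFR, 4 of 31 listed genes of prostaglandin synthesis, transport and reception were in the table and 3 were tested. PTGIS, prostacyclin synthase, fell in both comparisons, to 6.03 ± 1.08 FPKM with sulforaphane and 7.55 ± 0.519 FPKM with FSH, against 12.7 ± 1.32 FPKM in controls. PTGR1, a reductase that inactivates leukotriene B4 and oxidised prostaglandins, rose 2.09-fold with sulforaphane, to 21.6 ± 8.91 FPKM, against 10.3 ± 1.86 FPKM in controls, and did not pass with FSH (7.62 ± 0.504 FPKM, adjusted p = 0.114, edgeR). PTGFR was the one tested member called higher with FSH, where 55.3% of all tested genes were called higher. AKR1C1, an aldo-keto reductase, was below the filter, at 1.13 ± 0.750 FPKM with sulforaphane, 0.637 ± 0.148 FPKM with FSH and 0.080 ± 0.0361 FPKM in controls. The cyclooxygenases and the other prostanoid receptors are not analysed here.

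Of 34 listed genes of Gq, phospholipase C and calcium signalling, the route downstream of PTGFR, 5 were tested. With sulforaphane 3 rose and 2 fell, against 34.3% higher and 65.3% lower over all tested genes. With FSH 3 rose and 2 fell, against 55.3% and 42.7%. PRKCB, a protein kinase C, rose 1.48-fold with sulforaphane and 1.69-fold with FSH, NFATC2, a calcium-regulated transcription factor, 1.84-fold and 1.40-fold, and ITPR2, an inositol trisphosphate receptor channel, 1.32-fold and 1.39-fold. CAMK1, a calmodulin-dependent kinase (counts not whole), and DGKZ, which removes diacylglycerol, fell in both comparisons. Neither fall passed with sulforaphane under TMM factors (log2 fold changes -0.18 and -0.02). Under median-ratio factors CAMK1 passed (-0.29, adjusted p = 0.0061, edgeR) and DGKZ did not (-0.13, adjusted p = 0.146, edgeR). In sulforaphane against FSH, 1 of the 5 was called, NFATC2 at a log2 fold change of 0.39, where 55.7% of all tested genes were called. Under TMM factors 3 of the 5 were called higher, as were 320 of all 919 tested genes. The median over the list was -0.07, against -0.18 over all tested genes.

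The list of luteinization and ovulation genes held neither receptor, and 11 of its 48 genes were tested. With FSH 9 rose and 2 fell, where 55.3% of all tested genes rose. The median log2 fold change of the list was 1.16 against 0.41 over all tested genes. With sulforaphane 3 rose and 8 fell, where 65.3% of all tested genes fell (under TMM factors 5 fell, against 296 of all 919). The median was -0.60 against -0.56 over all tested genes. In sulforaphane against FSH 7 were lower and 2 higher, with a median of -1.69 against -0.18. Over all tested genes 42.8% were lower and 12.9% higher there. CYP11A1, the cholesterol side-chain cleavage enzyme, stood at 103 ± 31.3 FPKM with sulforaphane, 558 ± 43.0 FPKM with FSH and 149 ± 13.4 FPKM in controls. NR4A1, an immediate-early nuclear receptor, stood at 1.96 ± 0.146, 22.3 ± 2.59 and 8.14 ± 0.622 FPKM in the same groups.

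PTX3, a matrix protein of the expanding cumulus, was at 2.84 ± 0.281 FPKM with sulforaphane, 8.06 ± 0.767 FPKM with FSH and 5.28 ± 0.649 FPKM in controls. Other members moved otherwise. ADAMTS1, a matrix protease of the ovulating follicle (counts not whole), ran opposite to the receptors, at 51.9 ± 9.43 FPKM with sulforaphane, 20.2 ± 1.07 FPKM with FSH and 28.7 ± 1.67 FPKM in controls. Its rise with sulforaphane and its fall with FSH both passed, also under TMM factors. VEGFA, an angiogenic growth factor, and ABCA1, a cholesterol exporter, rose in both comparisons, with log2 fold changes of 1.92 and 0.82 with sulforaphane and 1.50 and 0.92 with FSH.

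The list of follicular-phase granulosa genes gave 7 tested of 25 listed. With FSH 6 rose and 1 fell, with a median log2 fold change of 0.93 against 0.41 over all tested genes, of which 55.3% rose. With sulforaphane 3 rose and 4 fell, where 65.3% of all tested genes fell (under TMM factors 2 fell, against 296 of all 919). The median of the list was -0.66 against -0.56 over all tested genes. In sulforaphane against FSH 5 were lower and 0 higher, where 42.8% of all tested genes were lower. The median was then -1.005 against -0.18, so this list was lower there, as the luteinization list was. HSD17B1, which makes oestradiol from oestrone, was at 1.42 ± 0.665 FPKM with sulforaphane, 5.42 ± 0.561 FPKM with FSH and 2.90 ± 0.203 FPKM in controls. AMHR2, the receptor for anti-Müllerian hormone (counts not whole), fell in both comparisons, at 0.553 ± 0.0473 FPKM with sulforaphane and 1.10 ± 0.179 FPKM with FSH, against 2.57 ± 0.329 FPKM in controls. CYP19A1, FSHR and CCND2 are not analysed here.

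**Figure D5:**
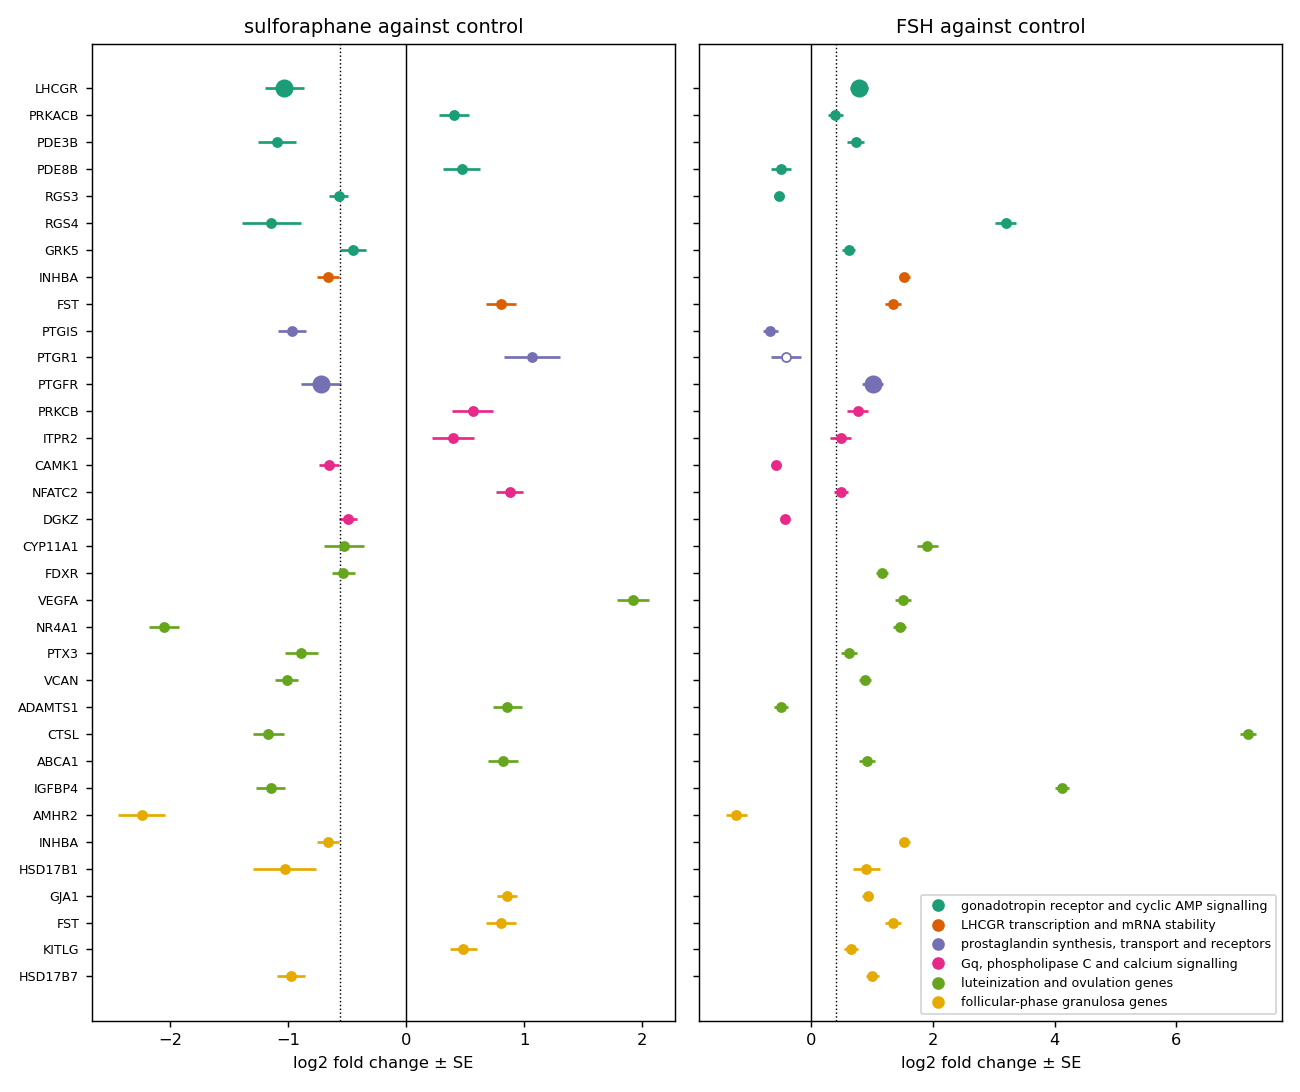
Log2 fold changes (points, with SE bars) of the tested members of the 6 gene lists, except 1 not reported here, for sulforaphane against control (left) and FSH against control (right); large points are LHCGR and PTGFR, open points did not pass, the dotted line is the median tested gene, and INHBA and FST appear in both lists that hold them. The luteinization and ovulation genes drawn range from -2.05 to 1.92 with sulforaphane and from -0.50 to 7.18 with FSH.

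The deposited annotation places both receptors in the KEGG terms for neuroactive ligand-receptor interaction and for calcium signaling, which were examined after the data had been seen. In the ligand-receptor term 13 of 16 rows were tested. With sulforaphane 11 were lower and 2 higher, where 65.3% of all tested genes were lower (under TMM factors 8, against 296 of all 919). The median log2 fold change was -1.34 against -0.56 over all tested genes. With FSH 6 were higher and 6 lower, where 55.3% of all tested genes were higher. These counts include LHCGR and PTGFR. Without the 2 receptors, 9 were lower and 2 higher with sulforaphane, and 4 were higher and 6 lower with FSH. The median with FSH was then -0.40 against 0.41 over all tested genes. S1PR1, a receptor for sphingosine 1-phosphate, had the same order of groups as LHCGR and PTGFR, at 1.43 ± 0.391 FPKM with sulforaphane, 6.57 ± 0.434 FPKM with FSH and 3.98 ± 0.147 FPKM in controls. So did HTR1D, a serotonin receptor, at 0.357 ± 0.163, 3.14 ± 0.675 and 2.05 ± 0.427 FPKM. S1PR3 (counts not whole) also had this order, at 0.887 ± 0.121, 3.15 ± 0.131 and 2.26 ± 0.0252 FPKM.

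Other receptors of the term did not move alike. Several fell in both comparisons, among them AGTR1 and ADRA1B. OPRD1 rose in both, to 1.85 ± 0.186 FPKM with sulforaphane and 2.79 ± 0.0781 FPKM with FSH, against 1.003 ± 0.180 FPKM in controls. AGTR1, the angiotensin II receptor, which couples to Gq like PTGFR, was at 6.29 ± 1.17 FPKM with sulforaphane and 6.51 ± 0.261 FPKM with FSH, against 25.7 ± 2.45 FPKM in controls. ADRA1B, the α1B-adrenergic receptor and also Gq-coupled, was at 0.740 ± 0.223 and 0.877 ± 0.152 FPKM, against 1.96 ± 0.119 FPKM in controls. Its means in both treated groups were under 1 FPKM, so it passed the filter largely through controls and its fall is a description. The same holds for GABRP of this term and PLN of the calcium signaling term, both counted among the lower genes. In the calcium signaling term, 15 of 17 rows were tested. With sulforaphane 4 were higher and 11 lower, where 65.3% of all tested genes were lower (under TMM factors 6, against 296 of all 919). With FSH 6 were higher and 9 lower, with LHCGR and PTGFR among the 6, where 55.3% of all tested genes were higher.

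LHCGR also marks theca and luteal cells, and PTGFR luteal cells, so marker lists were summed in each library. Of 15 granulosa markers 5 were in the table (AMHR2, INHBA, HSD17B1, FST and GJA1), and their summed level was 571 to 709 FPKM with sulforaphane, 772 to 805 FPKM with FSH and 388 to 394 FPKM in controls. Most of this sum was GJA1, at 583 ± 78.1 FPKM with sulforaphane, 613 ± 12.0 FPKM with FSH and 323 ± 2.50 FPKM in controls, while AMHR2, INHBA and HSD17B1 had lower means with sulforaphane than in controls, and AMHR2 also with FSH. Of 9 theca markers the table held CYP11A1 and LHCGR, and of 8 luteal markers CYP11A1, LHCGR and PTGFR. The luteal sum was 84.7 to 155 FPKM with sulforaphane, 564 to 655 FPKM with FSH and 159 to 188 FPKM in controls, and most of it was CYP11A1. The defining theca genes CYP17A1 and INSL3 are not analysed here, so neither cell type could be told apart from granulosa cells.

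Lists of other cell types differed between the groups as well. The 5 smooth muscle markers of 8 summed to 2314 to 2529 FPKM with sulforaphane, 3058 to 3122 FPKM with FSH and 7283 to 7581 FPKM in controls. Nearly all of it was ACTA2, at 2381 ± 108 FPKM with sulforaphane, 2937 ± 27.6 FPKM with FSH and 7303 ± 147 FPKM in controls, whereas CNN1 had the order of the receptors, at 43.5 ± 5.72, 148.5 ± 7.36 and 97.3 ± 3.24 FPKM. The 3 stromal fibroblast markers of 9 summed to 44.3 to 52.0, 56.9 to 60.6 and 85.4 to 91.6 FPKM in the same groups, and of them PDGFRB was highest with sulforaphane, at 13.1 ± 2.05, 6.55 ± 0.329 and 9.47 ± 0.650 FPKM. The 3 surface epithelium markers of 7 summed to 39.4 to 46.5, 89.4 to 95.3 and 154 to 157 FPKM. The 2 endothelial markers of 8 summed to 1.24 to 2.04, 2.05 to 2.20 and 1.25 to 1.27 FPKM, and 0 of 8 leukocyte markers were in the table. Of the endothelial pair, KDR was at 1.17 ± 0.434, 0.307 ± 0.0551 and 0.090 ± 0.010 FPKM, and TIE1 at 0.427 ± 0.0981, 1.80 ± 0.040 and 1.17 ± 0.0208 FPKM. Members of a list thus did not move as one. Their part in the receptor results was not tested.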

How the data were processed

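Polyadenylated RNA was sequenced in 9 libraries, per the labels' protocols. The submitters' processing notes list, with no role or order, Sscrofa11.1 as the build and HISAT2, StringTie 1.3.1, Bowtie2 2.2.8, fastp, edgeR and DESeq2 as tools. The authors deposited FPKM and an estimated count per gene and library, per the file headers. Counts were not whole in 143 of 1081 rows, whose genes are marked in the text, and were rounded. No strand-specific step is named. All 1053 NCBI identifiers matched the RefSeq gene table of the same build.

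Column sums are not depth, since the table holds part of each library. Relative depth was the median of count over FPKM in 354 genes (100 counts and 5 FPKM or more in all libraries), and its scale was set by 10 genes that shared the maximal ratio to annotated span within 0.1%. The filter kept 919 of 1081 rows that reached 1 FPKM in 3 or more libraries, which were tested in 1 edgeR 4.0.16 quasi-likelihood fit (R 4.3.3) with 3 group means and recovered depths as library sizes. P-values were adjusted by Benjamini-Hochberg at 0.05 within this table. Standard errors were derived from the F statistic (log2 fold change over its root). The biological coefficient of variation was 10.9%. The fit was tested on simulated data.

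Alternatives were DESeq2 1.42.0, limma 3.58.1 on log2(FPKM + 1) and log2(FPKM + 0.1), TMM and median-ratio factors, no filter, fits of the groups compared, a replicate block and each library left out. Genes named are the receptors, members of the lists, and the 5 genes nearest to each receptor; those of the KEGG terms were picked after their values were seen. The values of 1 member of the luteinization list are not reported here, though its counts and medians include that gene. The members and lists were chosen with earlier results of these data known.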

Additional observations from a re-analysis of the deposited data

How the results depend on the processing

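LHCGR and PTGFR kept their direction in all 3 comparisons under every alternative run, and their calls in all but 1: PTGFR in sulforaphane against control had a log2 fold change of -0.26 with TMM factors (adjusted p = 0.106, edgeR), against adjusted p-values from 7.29e-05 to 0.0209 in its other settings with no library left out. The TMM and median-ratio factors came from rows nearly all of which differed from control, and a gene that misses the threshold under them may still have changed. Leaving out each library in turn gave log2 fold changes with sulforaphane of -1.15 to -0.95 for LHCGR and -1.003 to -0.57 for PTGFR, relative to control. For FSH they were 0.69 to 0.87 and 0.95 to 1.06, and for sulforaphane against FSH -1.93 to -1.72 and -2.01 to -1.57. Counts of called genes ranged from 892 to 915, from 857 to 919 and from 470 to 593 in those comparisons. The log2 ratio of LHCGR to PTGFR, taken in FPKM only, kept its sign, with differences of -0.37 to -0.16, -0.13 to -0.06 and -0.26 to -0.06. With limma on log2(FPKM + 1) the change of LHCGR was smaller (-0.62 with sulforaphane and 0.59 with FSH), as 1 FPKM is near its level. List counts without sulforaphane replicate 3 were added after the data were seen. In sulforaphane against FSH, 3 of 5 Gq and calcium genes in place of 1 were then called. Over all tested genes 593 in place of 512 were called. Deviations of same-numbered libraries from their group means had correlations over genes from -0.18 to 0.21. They were all positive for FSH with control and all negative for sulforaphane with control. The labels do not say if same-numbered libraries share a culture, pig or batch, and these correlations cannot decide it. With the replicate block LHCGR and PTGFR were at -1.03 and -0.74 with sulforaphane and 0.79 and 1.01 with FSH, relative to control, and -1.81 and -1.74 for sulforaphane against FSH, and 915, 903 and 505 genes were called. The block left every call of both receptors in place. Depth limits the precision of LHCGR, which had 46 to 56 counts per sulforaphane library.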

Other observations

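The count and FPKM columns disagree slightly for PTGFR after FSH. The transcript length implied by count, FPKM and depth was 4.51, 4.50 and 4.96 kb in the FSH libraries, 4.32, 4.38 and 4.40 kb in the sulforaphane libraries, and 4.40, 4.30 and 4.39 kb in the control libraries. The mean with FSH was 1.07 times that in controls, and of the 354 genes with enough counts for this measure PTGFR alone had a ratio that high. Without FSH replicate 3 the ratio was 1.03, and 4 genes, PTGFR included, reached it. In CPM, the count scaled to depth, PTGFR was 184 ± 14.5 with FSH, 55.6 ± 17.2 with sulforaphane and 91.6 ± 6.26 in controls (SD, n = 3 each), so FSH replicate 3, the lowest of its group at 34.14 FPKM, had 169 CPM, against 184 and 198 in replicates 1 and 2. The implied length of LHCGR lay between 2.61 and 2.80 kb over the 9 libraries.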
